A study of Danio rerio with 72 samples.

Results

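The caudal vein (CV) is the large vein under the notochord of the zebrafish tail, and the laser captures of it from series M were compared with those from series Z. They make up 12 of the 72 libraries, 6 from series M (layers 2, 6, 8, 12, 15 and 17) and 6 from series Z (layers 1, 6, 10, 19, 22 and 25), and were taken by their region label. Polyadenylated RNA came from cryosections of the tail of embryos at 52 hours post fertilization, stained with cresyl violet and cut by laser into 6 regions per section. No genotype, strain or treatment is given for either series, and neither is the meaning of M and Z or the embryo behind a section. Each p-value thus rests on the variation among sections, which may share an embryo, and series, embryo and library preparation cannot be told apart. Captures of neural tissue (N), the caudal artery (CA) and the caudal vein plexus (CVP) from the same sections, 6 per series, served to set the difference in CV against that elsewhere.

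Venous endothelial cells in the fish tail carry scavenger receptors, among them the stabilins and the mannose receptor, which take waste molecules out of the blood. The lumen holds circulating red cells, whose RNA is mostly globin. The vein and its plexus lie close to the ventral skin and fin fold, so that a capture outlined by position can hold wall, blood and epidermis together.

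The CV libraries of series M held 75069 to 487557 reads over protein-coding genes (median 106508) and those of series Z 260969 to 4011028 (median 857310), with an exact two-sided permutation p of 0.00433 on log10 reads. Genes with at least 1 read numbered 4516 to 10103 in series M and 6643 to 14055 in series Z (exact permutation p = 0.0455), and after thinning to 75069 reads 3590 to 9429 in series M and 4954 to 9245 in series Z (exact permutation p = 0.589). In N the reads did not separate the series (535297 to 726644 in series M, 179333 to 3601919 in series Z, exact permutation p = 0.859), and thinned libraries of series M held more genes, 11318 to 12232 against 9112 to 11074 in series Z (exact permutation p = 0.00216). The library of layer 12 in series M stood apart, with the most reads of its series and the fewest genes. Libraries correlated less within series M (median r 0.34) than within series Z (median r 0.57), given as a description over genes. Between the series the median r was 0.36 (0.25 to 0.42), so libraries of series M were no more like each other than like those of series Z.

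**Figure D1:**
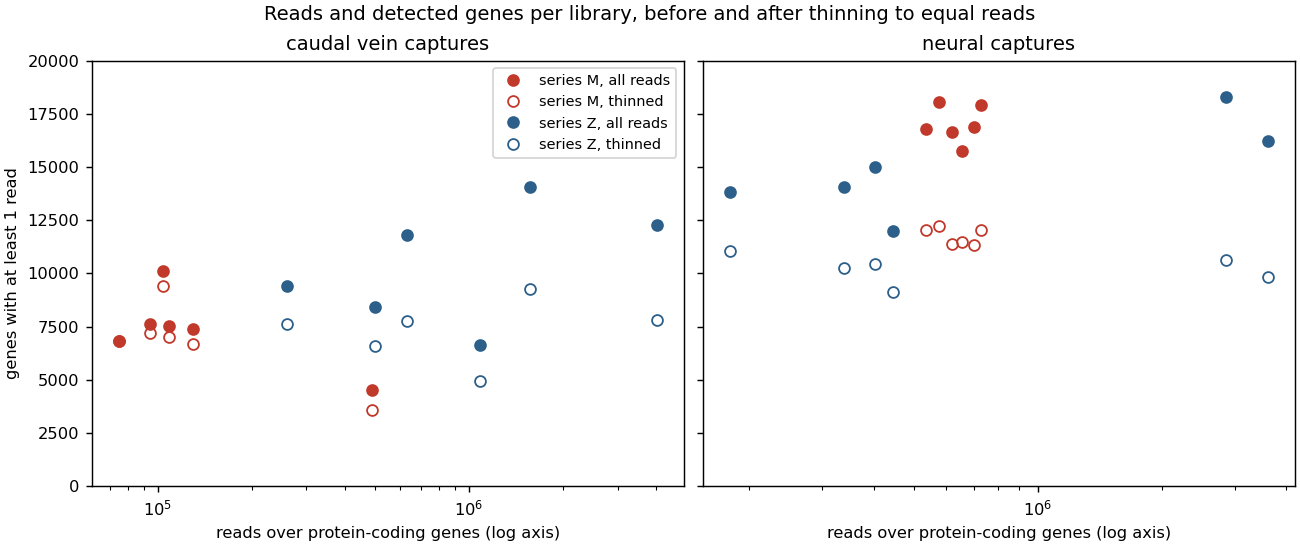
Reads over protein-coding genes (log axis) against genes with at least 1 read, for caudal vein (left) and neural captures (right) of series M (red) and series Z (blue). Filled points use all reads and open points libraries thinned to 75069 reads; in CV, series M lies at lower reads, and the open points of both series overlap.

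Differences are series M minus series Z on the log2(FPKM + 1) scale after quantile scaling, with the standard error after ±, and adjusted p-values come from limma over all genes tested. FPKM is the reads of a gene scaled to its length and to the total reads of the library. Of 7725 genes tested in CV, 37 were higher in series M (0.479%) and 251 lower (3.25%), 288 in all (3.73%), at an adjusted p under 0.05. All libraries of series M lay above all of series Z for 0.35% of the tested genes, and all of series Z above all of series M for 1.76%. The difference was above 0 for 37.9% and below 0 for 62.1%. The median difference over all tested genes was -0.46, and list medians stand beside that value. By limma-voom on recovered reads the median over the same genes was -0.017, and without a filter on low values it was -0.021 over 20505 genes. The log2 scale with a pseudocount of 1 understates the change of low genes.

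The labelled tissue was checked first by its defining markers. kdrl, a receptor for vascular endothelial growth factor found on endothelium, had 0 to 15.9 FPKM in series M (median 0.655) and 59.2 to 156 FPKM in series Z (median 69.7). All 6 libraries of series M lay below all 6 of series Z, and the gene had 10 reads in series M and 3379 in series Z. Read counts of the series stand against unlike totals, 999661 reads in series M and 8049984 in series Z. The difference was -5.45 ± 0.99 (limma, adjusted p = 0.00118). aplnra, a receptor for apelin on venous endothelium, was at 0 in 5 of the 6 libraries of series M and had 5.63 FPKM in layer 17, against 51.6 to 137 FPKM in series Z (median 83.8). That layer held its 1 read in series M, beside 1462 reads in series Z, a pooled rate 182 times as high in series Z (95% counting interval 32.5 to 7176). Pooled rates, here and below, weigh libraries by their reads. Layer 12 held 487557 of the reads of series M and had 0 reads of every gene given a pooled rate, which raises these ratios. The mean aplnra level was 0.938 FPKM in series M and 89.3 FPKM in series Z. The aplnra difference was -6.37 ± 0.97 (limma, adjusted p = 0.000128).

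stab2, a scavenger receptor of venous endothelium, had 0 to 120.0 FPKM in series M (median 4.02) and 58.3 to 181 FPKM in series Z (median 105). The series overlapped through layer 17 of series M alone, which held 120.0 FPKM while the other 5 libraries had at most 6.57 FPKM. The difference was -4.45 ± 1.02 (limma, adjusted p = 0.0116). Layers 8 and 12 of series M had stab2, kdrl and aplnra all at 0, and without these 2 sections the stab2 difference was -3.05 (limma, adjusted p = 0.0598). Leaving out libraries at 0 makes such a difference smaller by itself, and that fit was chosen after seeing the data. All 3 were above 0 in every library of series Z, and in series M in layer 17 alone. There stab2 reached the range of series Z, while kdrl (3.27 FPKM) and aplnra (5.63 FPKM) stayed below it, so in none of the 6 libraries of series M were all 3 markers at the level of series Z.

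**Figure D2:**
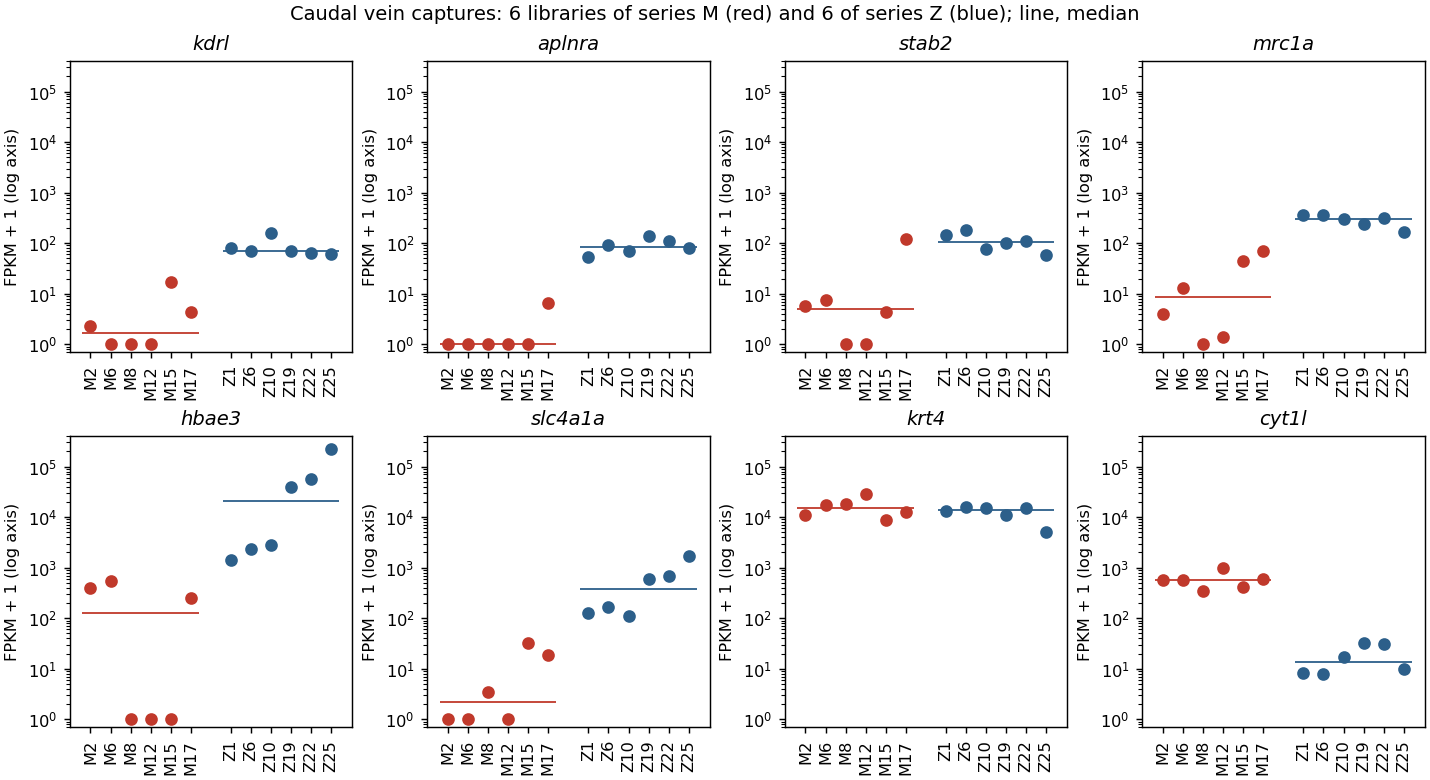
FPKM + 1 (log axis) of 8 genes in each caudal vein library of series M (red) and series Z (blue), with the median of each series as a line. The endothelial genes kdrl, aplnra and mrc1a and the red cell genes hbae3 and slc4a1a are lower in all 6 libraries of series M, krt4 is at a like height in both series, and cyt1l is higher in all 6 libraries of series M.

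Of 23 pan-endothelial genes in the tables, 17 passed the filter (2 of these through series Z alone), 8 were lower and 0 higher in series M, and the median difference was -2.66 (4 lower with the number of detected genes as covariate, and 5 without layer 10, 22 or 25 of series Z). Through series Z alone means that no library of series M reached 1 FPKM. The 6 libraries of either series can meet the filter by themselves. A gene under 1 FPKM in any library of series M thus needed its level in series Z to pass. That held for kdrl, stab2, fli1a, mrc1a, hbae3 and slc4a1a. It also held for aplnra, stab1, srgn, hbbe2, hbbe3, pnp4a and lmo2, which were at 0 in 5 libraries of series M. Layer 12 of series M had no erythroid read, so every erythroid gene that passed needed series Z. The counts and list medians include such genes, and their p-values do not allow for that selection. The summed level of all 23 genes, passed or not, was 17.4 to 363 FPKM in series M and 526 to 951 FPKM in series Z, so the summed ranges did not overlap. fli1a, a transcription factor of endothelium and blood, had 0 to 26.4 FPKM in series M and 18.4 to 106 FPKM in series Z, and differed by -4.92 ± 1.04 (limma, adjusted p = 0.00487). cldn5b, a tight junction gene of endothelium, was at 0 in all 6 libraries of series M and had 15.8 to 78.0 FPKM in series Z. It thus passed the filter through series Z alone. Its mean in series Z, 41.9 FPKM, was 2.63 times the mean worth of 3 reads in series M (15.9 FPKM, from 3.74 to 24.3 by library). This sets means against each other and is no lower bound, as the lowest library of series Z lay within that range.

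Of the 10 venous and scavenger genes, 8 passed (1 through series Z alone), 5 were lower and 0 higher in series M, with a median difference of -4.10. After thinning to equal reads, and likewise with the covariate, 3 were lower. mrc1a, a mannose receptor of venous and lymphatic endothelium, had 0 to 68.4 FPKM in series M (median 7.62) and 167 to 357 FPKM in series Z (median 306). The groups did not overlap, and the difference was -4.76 ± 0.86 (limma, adjusted p = 0.00115). stab1, the other stabilin, was at 0 in 5 libraries of series M and had 24.2 FPKM in layer 17, against 24.4 to 123 FPKM in series Z. The series did not overlap, by a narrow margin, and it differed by -5.42 ± 1.04 (limma, adjusted p = 0.00212). gpr182, an orphan receptor of venous and lymphatic endothelium, was at 0 in every library of series M and had 11.8 to 89.0 FPKM in series Z. It passed the filter through series Z alone. Its mean in series Z, 52.8 FPKM, was 2.98 times the mean worth of 3 reads in series M (17.7 FPKM), again no lower bound. Without layers 8 and 12 of series M, 3 of the venous list were lower, and the list median was -2.89. vsg1, an endothelial gene in no list under that symbol, had 0 to 41.2 FPKM in series M (median 3.66) and 300.1 to 569 FPKM in series Z (median 472). The difference was -6.70 ± 0.91 (limma, adjusted p = 2.5e-05).

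Of 18 stromal genes tested none was called, with 14 below and 4 above 0 and a median of -0.74, near that over all genes. col1a1a, a fibrillar collagen, had 217 to 1805 FPKM in series M and 339 to 1258 FPKM in series Z, a difference of 0.23 ± 0.45 (limma, adjusted p = 0.844) that took the other sign under 4 of the settings tried. Of 11 arterial genes 3 passed, and 1, the water channel aqp1a.1, was lower in series M, a call lost in 7 of the 12 fits that left out a library. Of 15 mural and smooth muscle genes 2 passed and none was called. Of 15 niche factor genes 5 passed and 1 was lower, ccl25b, a chemokine, at -4.66 ± 1.06 (limma, adjusted p = 0.0106). That call was lost without layers 8 and 12 of series M (limma, adjusted p = 0.0594).

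Red cell genes were lower in series M. Of 19 erythroid genes measured, 15 passed, 10 were lower and none higher in series M, and the median difference was -5.45. With the number of detected genes as covariate 4 were lower, and without a filter on low values 6. These genes took 0 to 0.125% of the reads of series M (median 0.0441%) and 0.243 to 21.5% of those of series Z (median 2.39%). Within series Z the share was 0.243, 0.384 and 0.354% in layers 1, 6 and 10 and 4.40, 5.76 and 21.5% in layers 19, 22 and 25. Fewer red cells in a capture and less RNA per red cell cannot be told apart in such bulk samples.

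hbae3, an embryonic alpha globin, had 0 to 541 FPKM in series M (median 126) and 1398 to 223729.7 FPKM in series Z (median 20936). All libraries of series M lay below those of series Z. The difference was -8.34 ± 1.29 (limma, adjusted p = 0.000142), and it was not called without a filter (adjusted p = 0.0818, limma) or by limma-voom on recovered reads (adjusted p = 0.599). hbbe2, an embryonic beta globin, had 1 read in series M and 19391 in series Z, a pooled rate 2408 times as high in series Z (95% counting interval 432 to 95116), and differed by -8.84 ± 1.13 (limma, adjusted p = 9.34e-06). That rate rests mostly on layers 19, 22 and 25 of series Z, with 3368, 11152 and 4751 reads. Layers 1, 6 and 10 had 9, 31 and 80 reads, and the level in series Z ran from 48.4 to 12783 FPKM. Globin genes are near-identical copies, so reads could be split between them and single members are uncertain. slc4a1a, the anion exchanger of the red cell membrane and no globin, had 0 to 31.8 FPKM in series M (median 1.22) and 108 to 1689 FPKM in series Z (median 384), a difference of -6.55 ± 0.97 (limma, adjusted p = 8.87e-05). All 6 libraries of series M lay below those of series Z.

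Other blood lists had few genes above the filter. Of 12 stem and progenitor genes 6 passed and 1 was lower, lmo2, a transcriptional regulator of blood and endothelium, at -5.45 ± 1.08 (limma, adjusted p = 0.00278) from 3 reads in series M and 1262 in series Z. The pooled rate was 52.2 times as high in series Z (95% counting interval 17.8 to 254). Of 11 neutrophil genes 4 passed and 1 was lower, srgn, a proteoglycan of blood cell granules that other cells also hold, from 2 reads in series M and 1049 in series Z. The pooled rate was 65.1 times as high in series Z (95% counting interval 18.0 to 539). Of 8 thrombocyte genes 2 passed, and of 12 macrophage genes 0, with none called.

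Skin genes were present in the captures of both series. krt4, a keratin of the outer epidermis, had 8749 to 28693 FPKM in series M (median 15049) and 5136 to 16229.9 FPKM in series Z (median 14126). The series overlapped, and the difference after scaling was 1.00 ± 0.26 (limma, adjusted p = 0.0259). Without quantile scaling it was 0.33 (limma, adjusted p = 0.515), and without layer 25 of series Z it was 0.60 and no longer called, as it also was not when layer 2, 6 or 12 of series M was left out. Of 28 epidermis genes 25 passed, 7 were higher and none lower in series M, with a median difference of 1.16. Without layer 6 or 12 of series M or layer 25 of series Z 3 were higher, without quantile scaling 3, without layers 8 and 12 of series M 2, and with the covariate 2. They took 4.0 to 10.9% of the reads of series M (median 5.63%) and 2.04 to 5.51% of those of series Z (median 4.86%), and these ranges overlapped.

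cyt1l, a type I cytokeratin gene, had 353 to 984 FPKM in series M (median 571) and 6.82 to 30.7 FPKM in series Z (median 12.6). Every library of series M lay above every library of series Z, and the difference was 5.45 ± 0.66 (limma, adjusted p = 3.28e-06). The medians also lay apart in CVP, where the series were not tested against each other. There cyt1l had 4.03 to 1408 FPKM in series M (median 75.9) and 0.510 to 14.4 FPKM in series Z (median 2.35). These ranges overlapped, and the highest value was that of layer 17. krt4 in CVP was at medians of 1244 and 3688 FPKM. For CV minus CVP, where 0 of 7725 genes were called higher, cyt1l was not called at 2.00 ± 1.31 (limma, adjusted p = 0.853). In CA cyt1l was at 0 in 5 of 6 libraries of each series, with 1300 FPKM in layer 17 of series M. CV minus CA, not called at 3.77 ± 1.72 (limma, adjusted p = 0.681), thus cannot show whether CA shares the gap. icn, ictacalcin of the epidermis, had 3557 to 9730.2 FPKM in series M and 2105 to 4370.2 FPKM in series Z, a difference of 1.44 ± 0.23 (limma, adjusted p = 0.000251) that was not called without quantile scaling (adjusted p = 0.062, limma). krt97, another keratin, differed by 3.83 ± 0.94 (limma, adjusted p = 0.0197), with 25.6 to 396 FPKM in series M and 1.33 to 20.4 FPKM in series Z. Its call was lost without layers 8 and 12 of series M.

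Of 11 pigment cell genes 10 passed, 5 were lower and none higher, with a median difference of -3.15, with 3 lower without layers 8 and 12 and 1 with the covariate. The count was 1 without layer 25 of series Z, 2 without its layer 6, 10 or 22, and 3 without its layer 19 or without layer 6 of series M. In N the list had a median of -1.42 with none called, and 1 member was called for CV minus N. pnp4a, a purine gene of iridophores, had 0 to 13.1 FPKM in series M and 31.4 to 1880.1 FPKM in series Z, a difference of -6.42 ± 1.07 (limma, adjusted p = 0.000403). It rests on 3 reads in series M, with a pooled rate 76.9 times as high in series Z (95% counting interval 26.3 to 373). tyrp1b, a melanin enzyme gene, had 0 to 1555 FPKM in series M and 736 to 2198 FPKM in series Z, and its call was lost in 9 of 12 fits without 1 library. Of 4 fin fold genes 3 passed, and 1, and2, an actinodin of the fin fold, was lower at -1.06 ± 0.26 (limma, adjusted p = 0.0173), a call lost without layer 1 of series Z. Fin fold genes took 0.238 to 1.29% of the reads of series M and 0.766 to 2.25% of those of series Z, and these ranges overlapped. Of 6 ionocyte genes 3 passed and none was called.

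**Figure D3:**
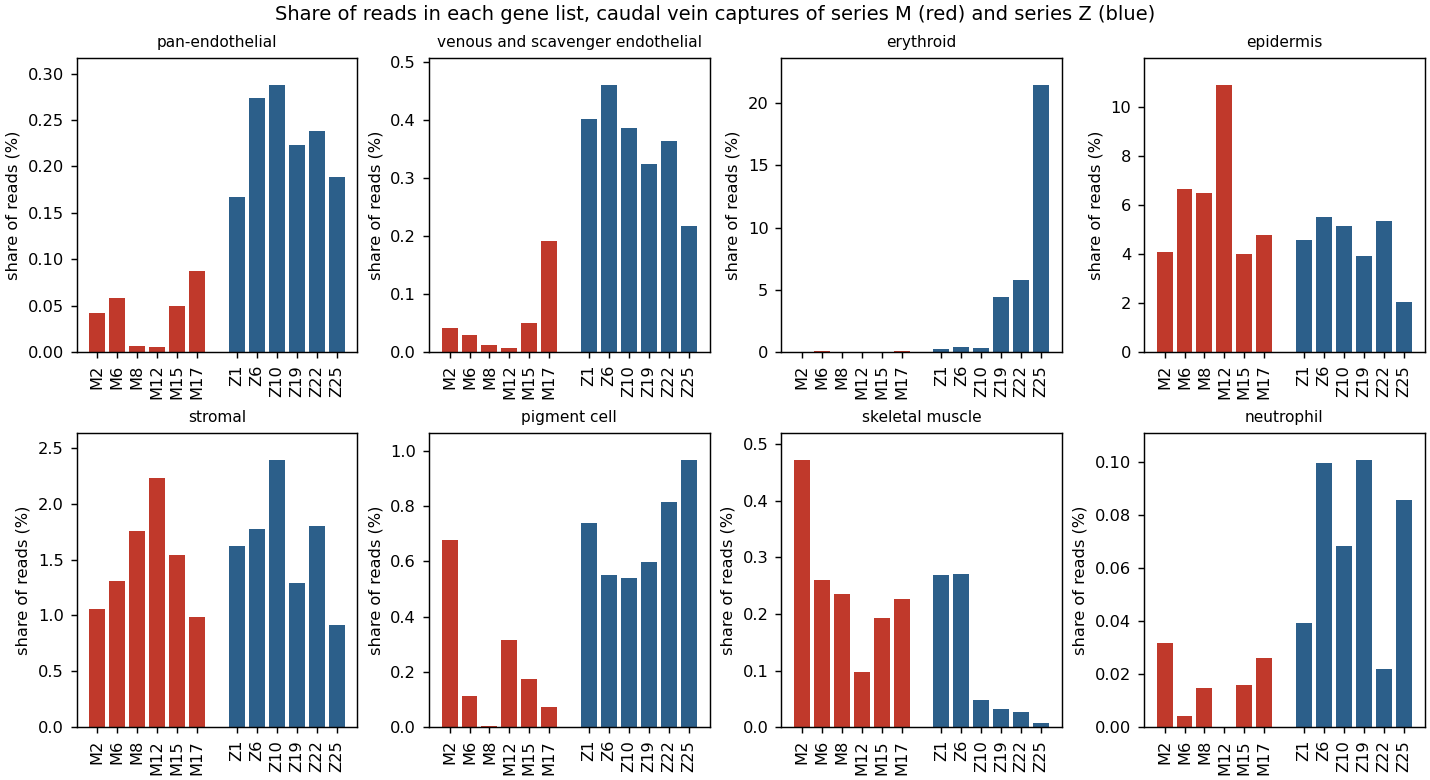
Share of reads (%) of 8 gene lists in each caudal vein library of series M (red) and series Z (blue). Endothelial and erythroid shares are lower in series M, with the layer 17 library of series M at 0.192% venous RNA close to the lowest of series Z, and epidermal shares overlap.

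Of neighbouring tissues, all 16 muscle genes that passed, of 25, lay above 0, with a median of 1.34, and 1 was called, the myosin light chain mylpfa at 3.66 ± 1.03 (limma, adjusted p = 0.0395). That call was lost in 7 of 12 fits that left out a library. Muscle genes took 0.0976 to 0.472% of the reads of series M and 0.00746 to 0.271% of those of series Z, and the part of muscle RNA in other results was not tested. Among general lists, 74 of 75 ribosomal protein genes passed with 1 lower in series M and a median of -0.67. Of 97 oxidative phosphorylation genes 77 passed, 11 were lower and none higher, with a median of -1.96, and 2 were lower with the number of detected genes as covariate. Without layer 2 or 8 of series M or layer 10 or 19 of series Z 7 were lower, and without layer 22 of series Z 6. No mitochondrial genome or cell cycle gene was called. With the number of detected genes as covariate, which differs between the series, the calls of stab2, fli1a, hbae3, lmo2, srgn, ccl25b, krt4, krt97, and2, tyrp1b and mylpfa were lost (limma, adjusted p = 0.0584 for hbae3 to 0.435 for mylpfa), and those of kdrl, aplnra, mrc1a, stab1, slc4a1a, pnp4a and cyt1l were not.

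The neural captures gave the baseline for a difference common to the series. Of 14915 genes tested in N, 81 were higher in series M (0.543%) and 88 lower (0.59%), with a median of 0.00. Of the 288 genes called in CV 226 were tested in N, and 18 of these were called there in the same direction and 2 in the opposite one. histh1l, a linker histone gene, differed by -7.85 ± 0.88 in CV and -4.49 ± 0.32 in N (limma, adjusted p = 1.16e-06 and 1.02e-06). dynlrb1, a dynein light chain, was at 0 in all CV libraries of series M and passed the filter there through series Z alone. Its mean in the CV libraries of series Z was 5.62 times the mean worth of 3 reads in those of series M. That is again no lower bound, as its lowest library of series Z had 38.9 FPKM, against 7.21 to 46.8 FPKM for 3 reads by library. In N dynlrb1 differed by -4.25 ± 0.34. serpinh1b, a collagen chaperone, was higher in series M in both regions, by 3.70 ± 0.60 in CV and 3.0 ± 0.66 in N (limma, adjusted p = 0.000309 and 0.0361).

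For CV minus N, the contrast was above 0 and called for 7 genes (0.0906%) and below 0 for 104 (1.35%), 111 in all (1.44%). Of these 111 genes 81 also passed the filter in N (3 higher, 78 lower). For the other 30, below the filter in N, the contrast has little or no level in N to set against CV and largely restates the difference in CV. Of the 288 genes called in CV 92 were among the 111, 66 of them tested in N. In the lists, 4 pan-endothelial, 3 venous and 5 erythroid genes were lower, with 2, 2 and 2 of them tested in N. cyt1l, the 1 epidermis gene called, had no read in any N library, so its contrast equals its difference in CV. kdrl gave -4.71 ± 1.04 (limma, adjusted p = 0.0178), stab1 -5.21 ± 0.97 (limma, adjusted p = 0.00315) and slc4a1a -4.63 ± 1.17 (limma, adjusted p = 0.0381), and all 3 were tested in N. hbae3 was not called at -8.28 ± 2.26 (limma, adjusted p = 0.0554), and was called with a block for the section (adjusted p = 0.00168, limma). mrc1a, at -4.54 (limma, adjusted p = 0.044), was not called with that block (limma, adjusted p = 0.0618). stab2 missed the threshold at -4.28 ± 1.26 (limma, adjusted p = 0.0768). Levels of such genes in N were low also in series Z, at medians of 3.61 FPKM for kdrl and 5.22 FPKM for slc4a1a. They were 0.570 FPKM for mrc1a, 0.866 FPKM for stab2 and 17.7 FPKM for hbae3. A fall as large as that in CV could thus not show in N, although these 5 genes passed its filter. Their contrasts cannot tell whether the difference is particular to CV.

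**Figure D4:**
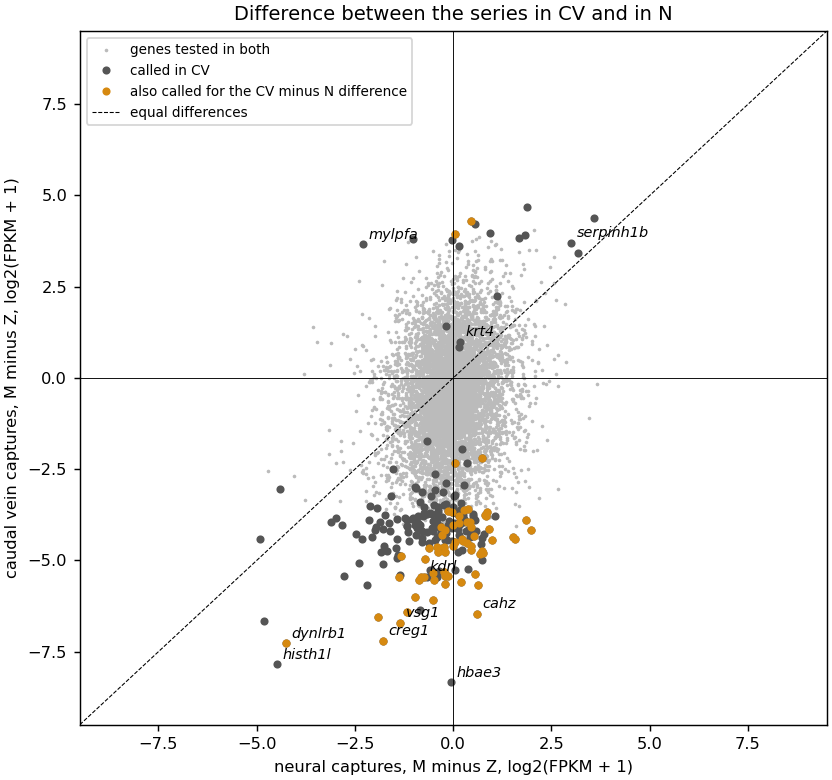
Difference of series M minus series Z on log2(FPKM + 1) in neural captures (horizontal) and caudal vein captures (vertical) for 7057 genes tested in both. Dark points are called in CV and orange points also for the difference between the regions; histh1l and dynlrb1 are low in both regions, kdrl and vsg1 mainly in CV.

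The other vascular captures placed these differences among the regions. In CVP, stab2 had 133 to 468 FPKM in series M (median 305) and 68.5 to 277 FPKM in series Z (median 163), and aplnra had 38.2 to 198 FPKM in series M and 45.2 to 123 FPKM in series Z. Venous genes took 0.299 to 1.09% of the CVP reads of series M and 0.303 to 0.779% of those of series Z, and the ranges overlapped. kdrl in CVP had 8.78 to 51.0 FPKM in series M and 60.5 to 166 FPKM in series Z, with no overlap, and its CV minus CVP contrast was not called at -3.55 ± 1.00 (limma, adjusted p = 0.284). In CA, kdrl had 2.08 to 171 FPKM in series M and 20.3 to 171 FPKM in series Z. aplnra in CA was at 0 in 5 of 6 libraries of series M and had 13.2 FPKM in the other, while in series Z it was at 0 in 1 library and reached 119.6 FPKM. The series were not tested against each other within CA or CVP. hbae3 was at a median of 294 FPKM in series M and 95570 FPKM in series Z in CA. Erythroid genes took a median of 0.0394% of the CA reads of series M and 10.0% of those of series Z. In CVP the medians were 0.245% and 2.66%, so the lower erythroid share of series M was not particular to CV. No erythroid gene was called for CV minus CA (list median 0.49) or for CV minus CVP (list median -2.43). Over all tested genes only 0.0129% and 0.207% were called, so the absence of calls shows little. The medians over all genes were -0.34 and -0.18, so the erythroid list lay lower than that for CV minus CVP.

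For CV minus CVP, 16 genes were lower (0.207%) and 0 higher in series M, with 484 at an unadjusted p under 0.05. Of the venous list 5 were among them, and of the pan-endothelial list 1, aplnra, at -6.65 ± 0.90 (limma, adjusted p = 0.000123). Of the venous genes, stab1 gave -6.42 ± 1.00 (limma, adjusted p = 0.000773), mrc1a -5.31 ± 0.99 (limma, adjusted p = 0.00848) and stab2 -5.68 ± 1.14 (limma, adjusted p = 0.0159). With a block for the section 7 genes were lower, and without layers 8 and 12 of series M 4 were. For CV minus CA, 1 gene was lower and 0 higher (0.0129%), with 537 at an unadjusted p under 0.05. Section 17 of series M differed from the others of its series, with krt4 at 26165 FPKM in CA, where the other 5 had at most 48.2 FPKM, and 23774 FPKM in CVP. Without that section the counts were 5 lower and 1 higher for CV minus CA and 21 lower and 5 higher for CV minus CVP.

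**Figure D5:**
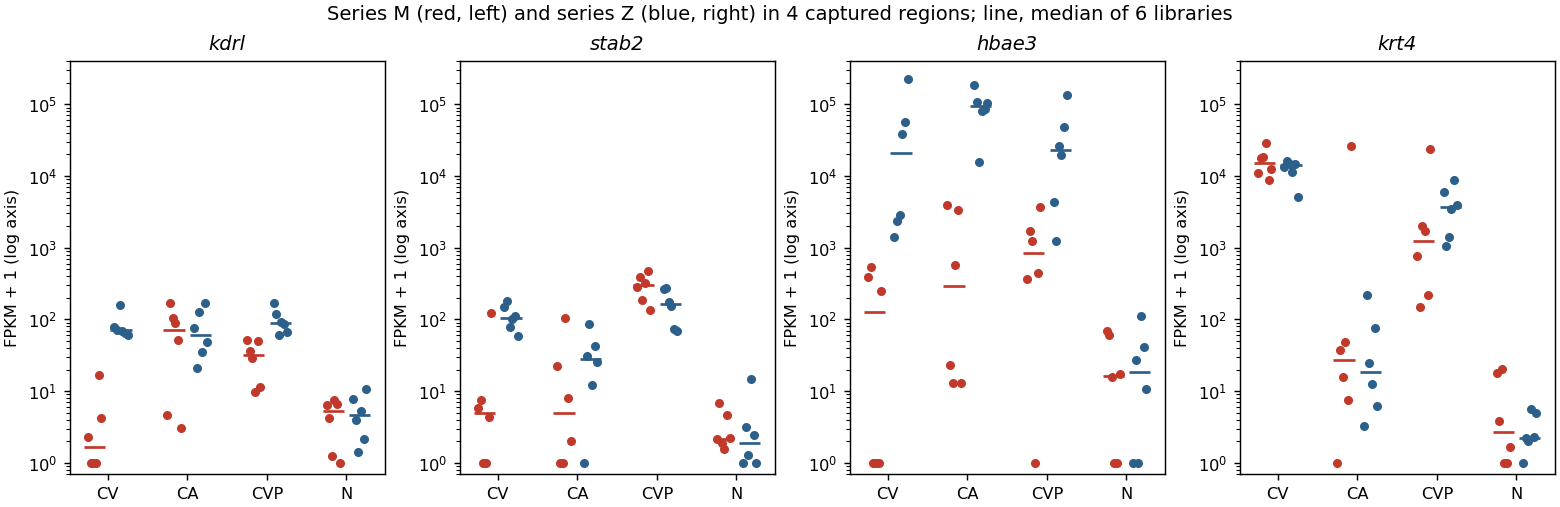
FPKM + 1 (log axis) of 4 genes in the caudal vein (CV), caudal artery (CA), plexus (CVP) and neural (N) captures of series M (red, left) and series Z (blue, right), with medians as lines. In series M stab2 is low in CV and high in CVP, and krt4 is high in CV in both series and in 1 CA library of series M.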

How the data were processed

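The authors deposited 1 table per series with FPKM values of 25067 protein-coding genes, and 0 columns were left without a sample. The submitters' processing notes name FastQC, HISAT, HTSeq, DESeq2 and GRCz10, with no versions or roles. Per the labels' protocols the RNA was amplified as for single cells, and no molecular identifiers are named, so intervals and floors cover counting error only. Genes were joined by symbol and are given without positions.

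Whole reads were recovered from the steps of the FPKM values (24441 genes above 0, all with 1 common step per library and gene), and the lowest chi-square per degree of freedom over 120 pairs of libraries, 3.48, gave no sign of a duplicate library. log2(FPKM + 1) was quantile scaled over the 12 libraries of a region. Genes that reached an FPKM of 1 in 6 or more of these were fitted with limma 3.58.1 (limma-trend, R 4.3.3), two-sided, with Benjamini-Hochberg adjustment at 0.05. Differences between regions were contrasts of series by region. The fits were tested on simulated data. Members and lists were chosen with earlier results of these data known. Named genes were the 4 markers, the 12 largest called and non-overlapping genes in each direction, up to 4 called members per list (2 by level where none was called), and the 8 largest in each direction for CV minus N. Clone-style symbols were left out, and the text names a part.

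The layer number marks the section, which pairs the regions captured from it. Deviations of same-section libraries correlated at -0.0348 to 0.0844 in 12 pairs. Alternatives were other scalings, a pseudocount of 0.1, no filter, limma-voom on recovered reads, thinning, a detected-gene covariate, 1 fit over 48 libraries, a section block and each library left out. The fit without layers 8 and 12 of series M was chosen after seeing the data. Left and right muscle captures were not used here.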

Additional observations from a re-analysis of the deposited data

Results flagged for a closer look

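Of 156 groups of 6 libraries tested for a library far from the rest, 21 had one. The nominal chance rate of 5% does not hold for a group with 5 libraries at 0, where any value above 0 is flagged. That was so in series M for aplnra, stab1, srgn, hbbe2, hbbe3, pnp4a and lmo2, so the count was not set against chance. In series M the layer 17 library stood apart for aplnra (5.63 FPKM), stab1 (24.2 FPKM), srgn (9.80 FPKM), hbbe2 (16.3 FPKM), the pronephros and gut list (mean log2 level 1.90) and the mitochondrial genome list (mean log2 level 11.71). The layer 2 library stood apart for epcam (41.7 FPKM), hbbe3 (264 FPKM) and pnp4a (13.1 FPKM), the layer 6 library for lmo2 (17.7 FPKM), and the layer 12 library for ponzr4 (585 FPKM) and its reads (487557). In series Z the layer 25 library stood apart for krt4 (5136 FPKM), hoxc8a (9.37 FPKM) and the epidermis list (mean log2 level 5.08). Single libraries of series Z stood apart for fli1a (layer 6, 18.4 FPKM), kdrl (layer 10, 156 FPKM), myl9b (layer 1, 2.80 FPKM), srgn (layer 1, 9.77 FPKM), rgl3a (layer 19, 3.46 FPKM) and the plasma and yolk protein list (layer 22, mean log2 level 2.22).

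By limma's test of the contrast, the difference between the series was called for CV minus N in 111 genes (81 of them tested in N), for CV minus CVP in 16 and for CV minus CA in 1. Of the named genes, the contrast was -7.07 for cahz and 3.43 for gata3, both tested in N. It was -6.50 for aplnra, -6.82 for cyp1a, -7.64 for hbbe2, -7.49 for hbbe3, 5.02 for rgl3a, 3.52 for EVPL and 5.45 for cyt1l. These 7 genes did not pass the filter in N, and cyt1l was at 0 in all 12 N libraries, so their values largely restate the difference in CV and show no contrast with a level in N. With a block for the section EVPL and gata3 were no longer called (limma, adjusted p = 0.110 and 0.0861).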

How the results depend on the processing

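Counts are given as higher and lower in series M. In CV (37 and 251) they were 18 and 204 without quantile scaling, 13 and 104 without a filter, 84 and 308 by limma-voom on recovered reads, 25 and 130 after thinning, 13 and 59 with detected genes as covariate, and 117 and 503 in 1 fit over 48 libraries. Leaving out a library gave 9 to 45 and 108 to 243, the lowest without layer 25 of series Z, with 155, 142, 118 and 114 lower without its layers 1, 10, 19 and 22. In N (81 and 88) they were 137 and 133 without scaling, 45 and 59 with scaling over 48 libraries, 31 and 46 without a filter, 273 and 330 by limma-voom, 13 and 14 after thinning and 12 and 25 with the covariate. Leaving out a library gave 34 to 99 and 49 to 118. For CV minus N (7 and 104) they were 3 and 113, 11 and 113, 4 and 59, 19 and 111, 4 and 42, and 3 and 19 in that order of settings, 4 and 94 with a pseudocount of 0.1, 6 and 71 with the section as replicate block, 2 to 13 and 45 to 125 without a section, and 3 and 72 without layers 8 and 12 of series M. For CV minus CA (0 and 1) they were 0 and 0 with a pseudocount of 0.1, 0 and 2 without a filter, 2 and 3 by limma-voom, and 0 to 1 and 1 to 5 without a section. For CV minus CVP the count lower (16) was 10 without a filter, 8 after thinning, 8 with the covariate, 7 with the replicate block and 4 without layers 8 and 12, and 0 to 5 were higher and 7 to 21 lower without a section. The cause of these shifts was not tested. Only col1a1a changed sign, to -0.17 without scaling, -0.16 with the covariate, -0.18 without layers 8 and 12 of series M, and over -0.027 (without layer 8 of series M) to 0.63 when a library was left out. Of the 288 calls in CV 144 remained after thinning and 64 with the covariate. The shallow libraries of series M limit low genes, and its deepest, layer 12, held the fewest genes (4516, and 3590 after thinning).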
